A study of Mus musculus with 16 samples.

Results

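The genes described here were 8 members of the PARP family, *Parp1*, *Parp3*, *Parp8*, *Parp9*, *Parp10*, *Parp11*, *Parp12* and *Parp14*, and *Dtx3l*, the ubiquitin ligase that partners *Parp9*. They were chosen by symbol with earlier results of these data known, and all 9 were found among the 23356 genes of the RNA-seq table. The table covers bone marrow-derived dendritic cells (BMDCs) of 4 genotypes on a C57BL/6 background, namely wild-type, *Tmem173*-/-, *Irf1*-/- and *Irf3/7*-/-. Each genotype was left untreated for 18 h or was given c-di-GMP, a bacterial cyclic dinucleotide that activates STING, the product of *Tmem173*, for the same time. The labels give a dose of 25 µg/ml, and the study's legends a higher dose. All cultures had been grown from bone marrow with GM-CSF and IL-4. The knockouts were of the whole animal, so the precursors and any other cell in the culture carried them too, and the labels give no age of the mice. Each of the 8 conditions had 2 samples, 16 in all, and nothing says whether the 2 came from separate mice or cultures.

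ADP-ribosyltransferases move ADP-ribose from NAD onto proteins and nucleic acids, either as long chains, as PARP1 does at broken DNA, or as single units, as most other members of the family do. Many single-unit PARPs, with the PARP9 and DTX3L complex, are products of interferon-stimulated genes and take part in the response to viruses and intracellular bacteria. Reading and removal of the mark fall to macrodomain proteins and hydrolases, and NAD is its only source.

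Levels are given as FPKM (fragments scaled by transcript length and library size), and were deposited as a single value per condition with the replicates already combined. Each value came with an interval computed by Cuffdiff, and the half-width of that interval ran from 22.3% to 36.9% of the level for these genes. A difference is on the scale of log2(FPKM + 0.1), and its 95% interval was carried over from the intervals of the values. Calls needed a difference of more than 2-fold and Cuffdiff intervals that did not overlap between the 2 conditions. No test over replicates was possible, and no p-value is given. All 9 genes had at least 1 FPKM in all 8 conditions, as had 9897 of the 23356 genes.

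The targeted genes were checked first. *Tmem173* was at 103 and 118 FPKM in untreated and treated wild-type BMDCs and at 8.97 and 7.49 FPKM in *Tmem173*-/- BMDCs. *Irf1* was at 149 and 245 FPKM in untreated and treated wild-type BMDCs and at 25.9 and 116 FPKM in *Irf1*-/- BMDCs, called lower under both treatments. Within the *Irf1*-/- BMDCs it still rose with treatment, by 2.15 on the log2 scale, so transcripts of the targeted gene were counted in these cells. In the BMDCs labelled *Irf3/7*-/-, *Irf7* was at 4.97 FPKM after treatment against 687 FPKM in wild-type, whereas *Irf3* was at 7.74 FPKM untreated and 20.2 FPKM treated, against 19.9 and 15.8 FPKM in wild-type. The treated *Irf3* value thus goes against the label, and this genotype is called by its label throughout. Of the markers of dendritic cells, 10 of 10 were at 1 FPKM or more in every condition, although they were not level between genotypes. *Cd74* lay between 3336 and 4983 FPKM. *H2-Aa*, by contrast, was at 364 and 462 FPKM in untreated and treated *Irf1*-/- BMDCs against 1031 and 1424 FPKM in wild-type. The summed level of 9 T and NK cell genes was 445 and 396 FPKM in untreated and treated wild-type BMDCs, 3.24 and 2.75 FPKM in *Tmem173*-/-, 13.5 and 14.5 FPKM in *Irf1*-/-, and 457 and 1153 FPKM in the BMDCs labelled *Irf3/7*-/-. *Gzma* carried most of the high sums, at 349 and 329 FPKM in wild-type and 315 and 900 FPKM in the BMDCs labelled *Irf3/7*-/-. In the latter *Klrb1c* went against the sum, from 4.05 FPKM untreated to 0.62 FPKM treated. The sum of 5 neutrophil genes was 19219 and 13881 FPKM in *Tmem173*-/- BMDCs and between 1356 and 3919 FPKM elsewhere. *S100a8* and *S100a9* carried most of it, at 10351 and 8336 FPKM in untreated *Tmem173*-/- BMDCs. That *S100a8* value lay above its own deposited interval, which ended at 10137 FPKM. The macrophage sum over 6 genes was 468 and 445 FPKM in *Tmem173*-/- BMDCs and 168 to 276 FPKM elsewhere. *Csf1r* and *Cd68* carried most of the *Tmem173*-/- sum, at 194 and 201 FPKM untreated. *Mertk* went against it, at 2.83 and 3.74 FPKM against 4.89 and 16.9 FPKM in wild-type, and so did treated *Fcgr1*, at 29.3 against 40.6 FPKM. The sum of 5 basophil and mast cell genes was 97.1 and 150.0 FPKM in the BMDCs labelled *Irf3/7*-/- and 37.0 to 57.0 FPKM elsewhere. These are levels in whole cultures, where fewer cells of a type and less RNA per cell cannot be told apart.

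c-di-GMP raised most of these genes in wild-type BMDCs. Of the 9 members 7 were called higher, and none was called lower, while 10.5% of the 11201 genes tested were called higher and 9.96% lower. The median log2 difference was 1.43 over the 9 members and 0.00 over all genes. The 7 were *Parp3*, *Parp9*, *Parp10*, *Parp11*, *Parp12*, *Parp14* and *Dtx3l*, whose levels rose between 2.26-fold and 4.49-fold. *Parp1* and *Parp8* did not pass. In *Tmem173*-/- BMDCs no member was called, in *Irf1*-/- BMDCs the same 7 genes rose, and in the BMDCs labelled *Irf3/7*-/- 5 of them did.

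**Figure D1:**
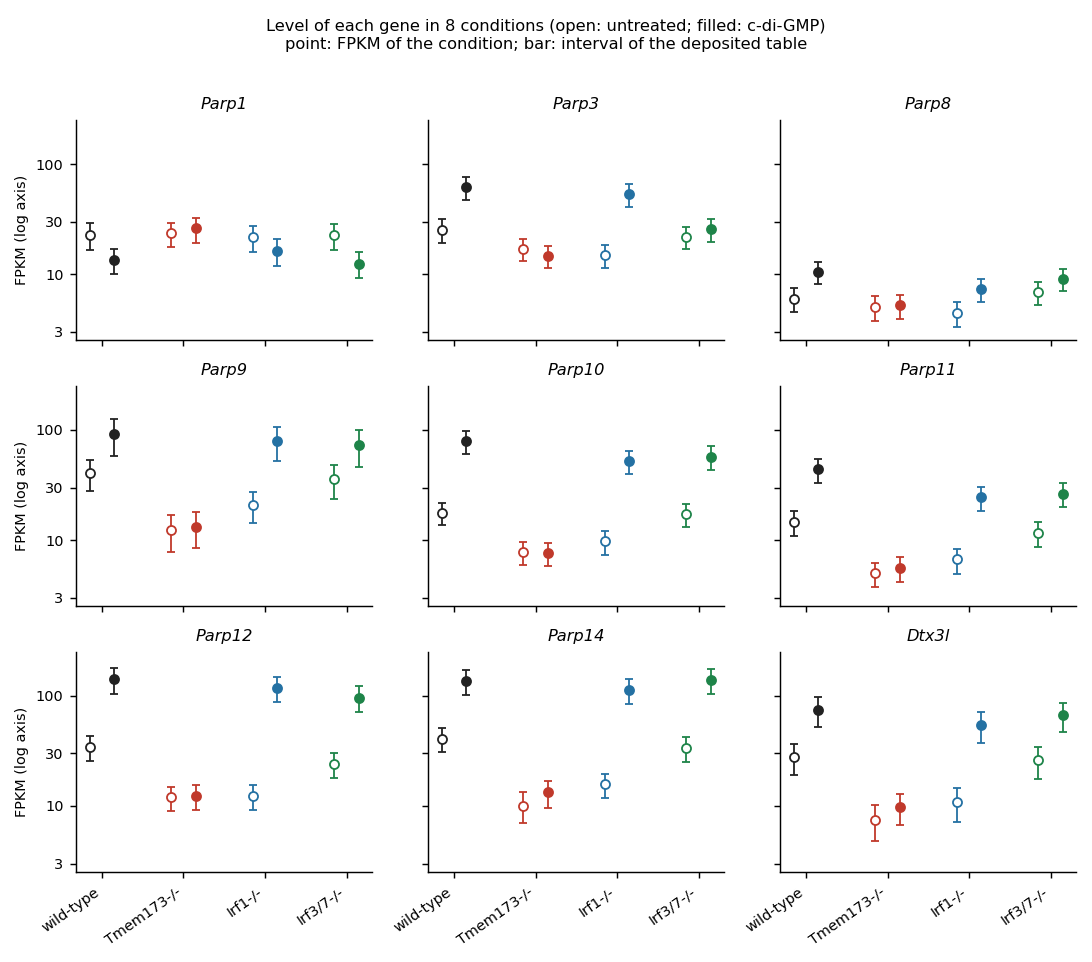
FPKM of the 9 genes on a log axis in 4 genotypes, with open points for untreated and filled points for c-di-GMP-treated BMDCs. Bars are the intervals of the deposited table. The treated point stands above the untreated point in wild-type and *Irf1*-/- BMDCs for all genes but *Parp1*, and in *Tmem173*-/- BMDCs the bars of the pair overlap in every panel.

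*Parp1*, the main sensor of DNA breaks in the family (chr1:180568924-180601254, plus strand, GRCm38), was the only member whose wild-type level was lower with treatment than without. It stood at 22.8 FPKM untreated and 13.4 FPKM treated in wild-type, 23.5 and 26.0 FPKM in *Tmem173*-/-, 21.6 and 16.3 FPKM in *Irf1*-/-, and 22.6 and 12.5 FPKM in the BMDCs labelled *Irf3/7*-/-. The wild-type difference was -0.77 on the log2 scale (95% interval -1.30 to -0.23) and was not called, since it was under 2-fold and the Cuffdiff intervals met. The highest level was only 2.09 times the lowest, the narrowest span of the 9 genes.

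*Parp3*, which adds single ADP-ribose units and acts in the repair of double-strand breaks (chr9:106470322-106476949, minus strand), behaved differently from *Parp1*. Its level was 25.3 FPKM untreated and 62.1 FPKM treated in wild-type, 17.0 and 14.7 FPKM in *Tmem173*-/-, 14.8 and 53.3 FPKM in *Irf1*-/-, and 22.0 and 25.8 FPKM in the BMDCs labelled *Irf3/7*-/-. It was high in 2 conditions, treated wild-type and treated *Irf1*-/- BMDCs, and the interval of the lower of these stood clear of the next condition in the order. The other 6 conditions lay between 14.7 and 25.8 FPKM, with every neighbouring pair of intervals overlapping. *Parp3* overlaps *Rrp9* on the opposite strand, and the strand setting of the Cuffdiff run was not given, so reads from the overlap cannot be assigned.

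*Parp8*, a single-unit transferase whose role is little known (chr13:116854820-117025537, minus strand), had the lowest level of the 9 in every condition but untreated *Tmem173*-/-, where *Parp11* was at 4.99 FPKM. It stood at 5.98 and 10.5 FPKM in untreated and treated wild-type, 5.03 and 5.19 FPKM in *Tmem173*-/-, 4.44 and 7.29 FPKM in *Irf1*-/-, and 6.93 and 9.08 FPKM in the BMDCs labelled *Irf3/7*-/-. The wild-type difference of 0.80 (0.33 to 1.28) was under 2-fold although the Cuffdiff intervals did not overlap.

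*Parp9* and *Dtx3l* encode a complex in which DTX3L supplies the ubiquitin ligase and PARP9 the macrodomains that bind ADP-ribose. The genes lie head to head on chromosome 16 and overlap by 682 bp, *Parp9* at chr16:35938470-35972605 on the plus strand and *Dtx3l* at chr16:35926511-35939151 on the minus strand. *Parp9* was at 40.6 and 91.8 FPKM in untreated and treated wild-type, 12.4 and 13.1 FPKM in *Tmem173*-/-, 20.9 and 79.0 FPKM in *Irf1*-/-, and 35.8 and 73.1 FPKM in the BMDCs labelled *Irf3/7*-/-. *Dtx3l* was at 27.8 and 75.2 FPKM, 7.49 and 9.73 FPKM, 10.9 and 54.7 FPKM, and 25.9 and 66.5 FPKM in the same order. Both were lowest in *Tmem173*-/- BMDCs under either treatment and highest in treated wild-type BMDCs. The ratio of *Parp9* to *Dtx3l* stayed between 1.10 and 1.93 while the level of each changed 7.42-fold and 10.0-fold over the conditions. The deposited table gives the pair a single shared locus, so reads from their overlap could have been counted for either gene, and their intervals were among the widest of the 9.

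*Parp14*, a large transferase with macrodomains that works with STAT6 downstream of IL-4, lies 55 kb from *Dtx3l* on the same chromosome (chr16:35832874-35871544, minus strand). Its level was 41.0 FPKM untreated and 138 FPKM treated in wild-type, 9.98 and 13.3 FPKM in *Tmem173*-/-, 15.8 and 113 FPKM in *Irf1*-/-, and 33.6 and 140 FPKM in the BMDCs labelled *Irf3/7*-/-. The 3 treated values other than that of *Tmem173*-/- lay together with overlapping intervals and apart from all untreated values. The ratio between its highest and lowest condition was the widest of the 9 genes.

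*Parp12*, a zinc-finger transferase that restrains several RNA viruses (chr6:39086410-39118349, minus strand), reached the highest level of the 9, with *Parp14* close to it. It was at 34.7 and 142 FPKM in untreated and treated wild-type, 12.0 and 12.3 FPKM in *Tmem173*-/-, 12.3 and 119 FPKM in *Irf1*-/-, and 24.1 and 96.6 FPKM in the BMDCs labelled *Irf3/7*-/-. Untreated *Irf1*-/- BMDCs thus lay with the *Tmem173*-/- cells, and treated *Irf1*-/- BMDCs with treated wild-type.

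*Parp10*, a single-unit transferase with RNA- and ubiquitin-binding motifs (chr15:76231174-76243441, minus strand), had the largest wild-type response. It stood at 17.6 and 79.2 FPKM in untreated and treated wild-type, 7.75 and 7.63 FPKM in *Tmem173*-/-, 9.76 and 52.1 FPKM in *Irf1*-/-, and 17.3 and 57.1 FPKM in the BMDCs labelled *Irf3/7*-/-. The 3 high values were treated ones, and none of their intervals reached an untreated interval. *Parp10* overlaps *Plec* on the same strand, and how the counting split such reads was not given.

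*Parp11*, a single-unit transferase that has been tied to the turnover of the type I interferon receptor (chr6:127446840-127494261, plus strand), was lower than *Parp10* in every condition. It was at 14.7 and 44.1 FPKM in untreated and treated wild-type, 4.99 and 5.59 FPKM in *Tmem173*-/-, 6.67 and 24.4 FPKM in *Irf1*-/-, and 11.6 and 26.5 FPKM in the BMDCs labelled *Irf3/7*-/-. Among the 9 genes it was the only one whose treated wild-type level stood clear of the next level in the order, and it did so narrowly, with a lower bound of 33.1 FPKM against an upper bound of 32.9 FPKM.

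Over all 9 genes and 8 conditions, neighbours in the order of levels mostly could not be separated. Of 7 neighbouring pairs, all 7 overlapped for *Parp1*, *Parp8* and *Parp9*, 6 for *Parp3*, and 5 for each of the other 5 genes. In *Parp10*, *Parp14* and *Dtx3l* the gaps fell at the same places, between the lowest treated value outside *Tmem173*-/- and untreated wild-type BMDCs, and between the untreated BMDCs labelled *Irf3/7*-/- and untreated *Irf1*-/- BMDCs.

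The responses were then compared between genotypes. In wild-type BMDCs the log2 difference between treated and untreated cells was 2.16 (95% interval 1.69 to 2.63) for *Parp10*, 2.03 for *Parp12* with an interval that reached up to 2.55 and 1.75 (1.23 to 2.26) for *Parp14*. It was 1.58 (1.07 to 2.09) for *Parp11*, 1.43 (0.80 to 2.07) for *Dtx3l*, 1.29 (0.81 to 1.77) for *Parp3* and 1.18 (0.48 to 1.87) for *Parp9*. Ranked among the 11201 genes tested, *Parp10* was 366th, *Parp12* 419th and *Parp9* 988th from the top, so these genes stood in the upper part of the response and not at its head.

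In *Tmem173*-/- BMDCs the 9 differences lay between -0.20 and 0.41 with a median of 0.08, and all 9 intervals held 0. No member was called, where 0.0552% of the 10867 genes tested were called in either direction, so the absence of calls was that of nearly all genes in this genotype. The difference between the responses of *Tmem173*-/- and wild-type BMDCs was below 0 with its whole 95% interval for 8 members and above 0 for *Parp1*, against 14.9% and 15.4% of all genes. These 8 differences ran from -2.18 for *Parp10* to -0.76 for *Parp8*. Of the wild-type log2 rise of the 7 called genes, a median of 7.09% was kept, with *Dtx3l* at 26.0% and *Parp14* at 23.4% keeping the most.

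In *Irf1*-/- BMDCs the same 7 genes rose, 7 of 9 against 9.67% of the 11164 genes tested, with a median over the 9 of 1.91. *Parp12* rose 9.65-fold, *Parp14* 7.14-fold, *Parp10* 5.34-fold and *Dtx3l* 5.04-fold. The response was larger than in wild-type BMDCs by 1.23 on the log2 scale (0.49 to 1.97) for *Parp12* and by 1.08 (0.35 to 1.80) for *Parp14*, where 3.98% of all genes had an interval above 0. For the other 7 members the interval of the difference held 0, with *Dtx3l* at 0.89 (-0.03 to 1.81) and *Parp9* at 0.73 (-0.23 to 1.70), so a larger response was not resolved for them. The larger response of *Parp12* and *Parp14* went with a lower starting level and not with a higher final level, since *Parp12* ended at 119 FPKM against 142 FPKM in wild-type and *Parp14* at 113 against 138 FPKM. The T and NK cell sum was 13.5 and 14.5 FPKM in the 2 *Irf1*-/- conditions and changed little, while *Ifng* rose from 1.26 to 25.5 FPKM, and the part of either in the rise of the members was not tested.

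In the BMDCs labelled *Irf3/7*-/- *Parp10*, *Parp11*, *Parp12*, *Parp14* and *Dtx3l* rose, 5 of 9 against 10.2% of the 11283 genes tested. *Parp9* differed by 1.03 (0.30 to 1.75), past 2-fold, but its Cuffdiff intervals overlapped. *Parp3* differed by 0.23 (-0.24 to 0.71). *Parp3* was the only member whose response was smaller than in wild-type BMDCs with its whole interval below 0, at -1.06 (-1.73 to -0.38), where 3.47% of all genes were below 0, and it kept 18.1% of its wild-type rise. The other 6 called genes kept between 74.9% for *Parp11* and 117% for *Parp14*, and the intervals of their differences from wild-type held 0. These cells had a T and NK cell sum of 1153 FPKM after treatment, against 396 FPKM in wild-type. After treatment *Ifng* was at 1155 FPKM in them against 299 FPKM in wild-type, and *Ifnb1* at 22.6 against 2.93 FPKM. The part of the sum and of either interferon gene in the result was not tested.

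**Figure D2:**
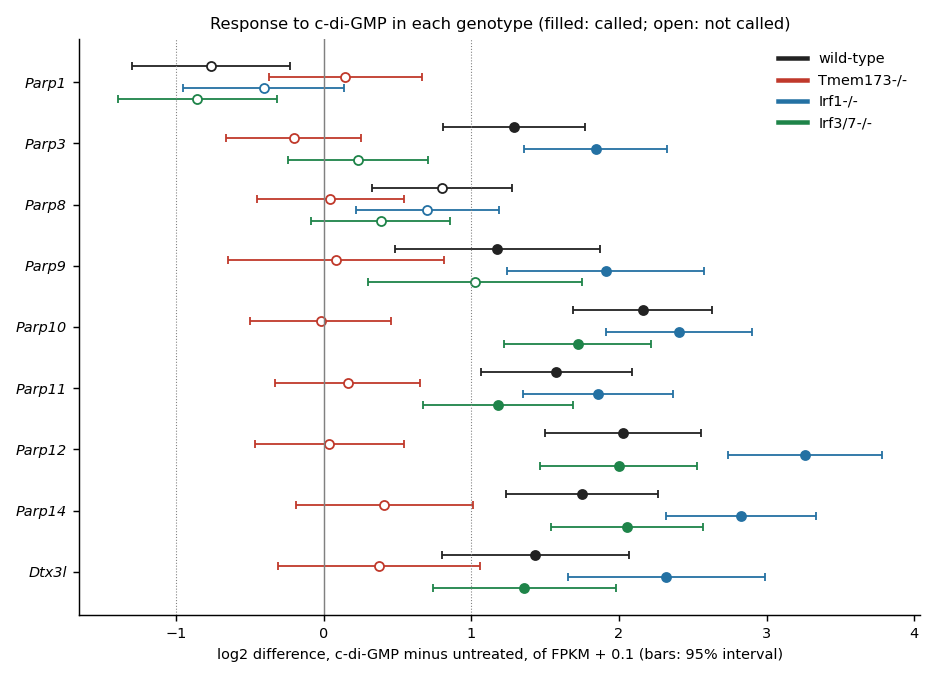
Log2 difference between c-di-GMP-treated and untreated BMDCs for each gene and genotype, with 95% intervals from the deposited intervals, filled where called. Dotted lines mark 2-fold. *Tmem173*-/- points sit near 0 for all 9 genes, *Irf1*-/- points lie furthest right for *Parp12* (3.26) and *Parp14* (2.83), and the *Parp3* point of the BMDCs labelled *Irf3/7*-/- (0.23) falls away from the wild-type point (1.29).

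Knockout and wild-type BMDCs were next compared under the same treatment. All these comparisons share the wild-type conditions, so they are not independent of each other. Without treatment, *Tmem173*-/- BMDCs had 6 of 9 members called lower, against 5.95% of the 11101 genes tested, and the median of the 9 was -1.52 against 0.01 over all genes. *Parp14* was 4.10-fold lower, *Dtx3l* 3.71-fold, *Parp9* 3.28-fold, *Parp11* 2.95-fold, *Parp12* 2.89-fold and *Parp10* 2.28-fold. *Parp1* at 0.04 (-0.50 to 0.58) and *Parp8* at -0.24 (-0.74 to 0.25) had intervals that held 0, and *Parp3* at -0.57 (-1.05 to -0.10) did not pass 2-fold. The lower level was therefore present before any c-di-GMP was added.

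Untreated *Irf1*-/- BMDCs had 4 members called lower, 4 of 9 against 3.52% of the 11017 genes tested, with a median of -0.95. These were *Parp12* (2.82-fold lower), *Parp14* (2.60-fold), *Dtx3l* (2.56-fold) and *Parp11* (2.21-fold). *Parp9* at -0.95 (-1.59 to -0.31), *Parp10* at -0.85 (-1.32 to -0.38) and *Parp3* at -0.77 (-1.25 to -0.29) had separate intervals but were under 2-fold, and with a threshold of 1.5-fold they were called too. All 9 values were below 0. In the untreated BMDCs labelled *Irf3/7*-/- none of the 9 was called, against 2.04% of the 11004 genes tested in either direction, and the differences ran from -0.52 for *Parp12* to 0.21 for *Parp8*.

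Among untreated BMDCs, the T and NK cell sum was low in both genotypes where members were called lower. The neutrophil sum was above that of wild-type in *Tmem173*-/- BMDCs only. The T and NK cell sum of untreated BMDCs was 445 FPKM in wild-type and 457 FPKM in those labelled *Irf3/7*-/-, but only 13.5 FPKM in the absence of *Irf1* and 3.24 FPKM in the absence of *Tmem173*, with 8, 8, 3 and 1 of the 9 genes at 1 FPKM or more. *Gzma* and *Ncr1* were listed at 0 in untreated *Tmem173*-/- BMDCs and *Ncr1* in untreated *Irf1*-/- BMDCs. *Ifng*, the gene of the interferon that T and NK cells secrete, was at 34.6, 44.0 and 1.26 FPKM in the first 3 of these and listed at 0 in the last. The neutrophil sum was 3919, 2201, 2378 and 19219 FPKM in the same order. *Mpo*, a gene of that sum, went another way, at 3.70, 16.5, 24.7 and 19.1 FPKM, above wild-type in every knockout. The part of these cells and of *Ifng* in the untreated levels of the members was not tested.

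After c-di-GMP, 8 of 9 members were called lower in *Tmem173*-/- than in wild-type BMDCs, against 13.5% of the 11318 genes tested, with a median of -2.94. *Parp12* was 11.5-fold lower at -3.51 (-4.03 to -3.00), *Parp14* 10.4-fold at -3.37 (-3.91 to -2.82) and *Parp10* 10.4-fold at -3.36 (-3.84 to -2.87). *Parp11*, *Dtx3l*, *Parp9* and *Parp3* were 7.88-fold, 7.73-fold, 7.00-fold and 4.21-fold lower. *Parp8* passed narrowly, at 2.02-fold, and lost its call with a pseudocount of 1 FPKM, at -0.89. *Parp1* went the other way, by 0.95 (0.43 to 1.47), under 2-fold. The neutrophil sum was 13881 FPKM in the treated *Tmem173*-/- against 1800 FPKM in the treated wild-type BMDCs and the T and NK cell sum 2.75 against 396 FPKM, and their part was not tested.

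Treated *Irf1*-/- BMDCs had no member called against treated wild-type, where 7.56% of the 11079 genes tested were called in either direction. The differences lay between -0.85 for *Parp11* and 0.28 for *Parp1*, and 8 of 9 were below 0. The intervals of *Parp11* (-1.35 to -0.34), *Parp10* (-1.09 to -0.11) and *Parp8* (-0.99 to -0.05) left out 0. The estimates of these 3 were lower by less than 2-fold, although the intervals of *Parp11* and *Parp10* reached past it. Their Cuffdiff intervals were apart for *Parp11* and overlapped for *Parp10* and *Parp8*. In the treated BMDCs labelled *Irf3/7*-/- 1 of 9 was called lower, against 2.69% of the 11209 genes tested. That was *Parp3*, 2.40-fold lower at -1.26 (-1.74 to -0.78). *Parp11* differed by -0.73 (-1.24 to -0.23), *Parp12* by -0.55 (-1.08 to -0.02) and *Parp14* by 0.02 (-0.50 to 0.54).

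The 2 factor knockouts were also set against each other after treatment. *Parp3* was 2.06-fold higher in *Irf1*-/- BMDCs than in those labelled *Irf3/7*-/-, at 1.04 (0.55 to 1.53), and was the only one of the 9 called, where 3.22% of the 11235 genes tested were called higher. The other 8 differences lay between -0.31 and 0.38 and all their intervals held 0. At this precision a difference between the 2 knockouts was therefore seen for *Parp3* and not resolved for the rest.

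**Figure D3:**
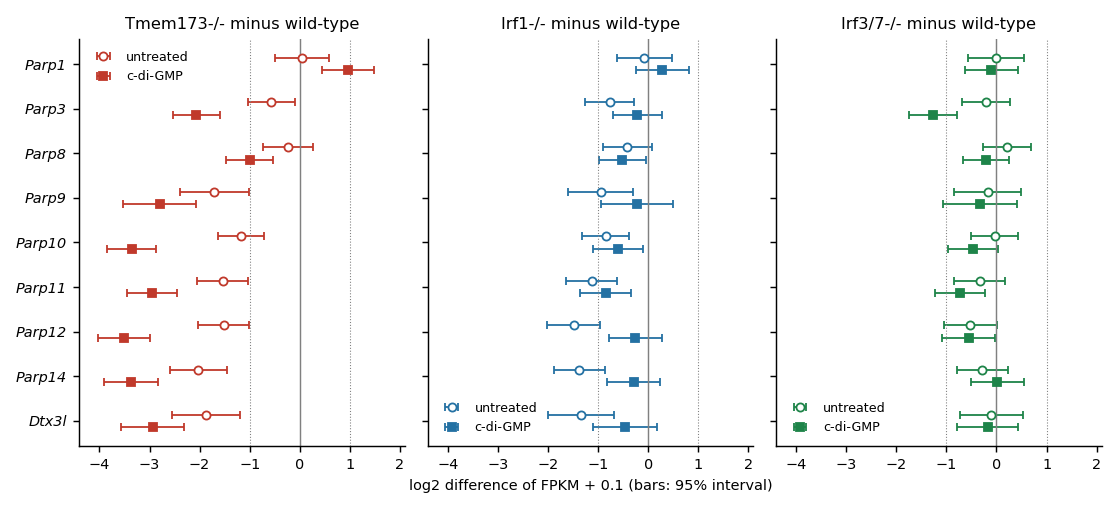
Log2 difference between each knockout and wild-type BMDCs, untreated (open circles) and after c-di-GMP (filled squares), with 95% intervals. Dotted lines mark 2-fold. In *Tmem173*-/- the squares lie left of the circles for all genes but *Parp1*, in *Irf1*-/- the circles of *Parp12* (-1.49) and *Parp14* (-1.37) lie left of the squares (-0.25 and -0.29), and among the BMDCs labelled *Irf3/7*-/- the square of *Parp3* (-1.26) stands apart.

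The shapes of the 9 profiles were compared by the root mean square difference between log2 values over the 8 conditions, each profile centred on its own mean. The closest pairs of members were *Parp9* and *Parp11* at 0.21, *Parp9* and *Dtx3l* at 0.23, and *Parp11* and *Dtx3l* at 0.25. *Parp1* was the furthest from the rest, with values from 0.75 against *Parp8* to 1.80 against *Parp14*. Among 9269 genes searched, the closest profiles were those of *H2-T23* for *Parp9* (0.18), *H2-T10* for *Dtx3l* (0.15), *Trim21* for *Parp11* (0.16), *Mlkl* for *Parp10* (0.15), *Sp140* for *Parp12* (0.11) and *H2-T24* for *Parp14* (0.15). *Trim21* and *H2-K1* were both among the nearest 3 of *Parp9* and of *Parp11*, and *H2-T10* was among the nearest 3 of *Parp10*, *Parp14* and *Dtx3l*. *Parp3* was nearest to *Zfp961* (0.19) and then *Nmi* (0.21), *Parp8* to *Fbxo7* (0.09) and *Parp1* to *Zdhhc13* (0.06). The points of each profile are the same 8 pooled conditions, so these values are a description.

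Promoter sequences were read for the members found in the RefSeq promoter table of GRCm38.p6, which spans 250 bases before to 50 bases after an annotated start. It held 7 windows for 6 members, 2 of them for *Parp11*, and *Parp9*, *Parp10* and *Parp14* were not matched. The core of the interferon-stimulated response element, GAAANNGAAA, the kind of site that interferon regulatory factors bind, was searched on both strands, where it reads TTTCNNTTTC on the other. Windows are shown 5′ to 3′ on the strand of the gene for 3 members that rose with c-di-GMP, with a match in capitals and all other bases in lower case.
Parp11, first window, chr6:127446590-127446889, plus strand: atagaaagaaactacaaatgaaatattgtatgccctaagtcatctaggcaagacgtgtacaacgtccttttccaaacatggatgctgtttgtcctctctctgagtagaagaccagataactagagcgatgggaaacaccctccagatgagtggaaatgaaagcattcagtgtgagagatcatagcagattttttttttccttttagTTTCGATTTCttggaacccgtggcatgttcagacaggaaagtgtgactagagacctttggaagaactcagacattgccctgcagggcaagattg
Parp12, chr6:39118300-39118599, minus strand: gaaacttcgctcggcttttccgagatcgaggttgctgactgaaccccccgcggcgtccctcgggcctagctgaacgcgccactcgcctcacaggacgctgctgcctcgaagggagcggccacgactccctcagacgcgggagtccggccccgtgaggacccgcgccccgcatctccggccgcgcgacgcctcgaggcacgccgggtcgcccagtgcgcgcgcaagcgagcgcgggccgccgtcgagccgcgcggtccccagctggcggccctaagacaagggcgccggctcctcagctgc
Dtx3l, chr16:35938978-35939277, minus strand: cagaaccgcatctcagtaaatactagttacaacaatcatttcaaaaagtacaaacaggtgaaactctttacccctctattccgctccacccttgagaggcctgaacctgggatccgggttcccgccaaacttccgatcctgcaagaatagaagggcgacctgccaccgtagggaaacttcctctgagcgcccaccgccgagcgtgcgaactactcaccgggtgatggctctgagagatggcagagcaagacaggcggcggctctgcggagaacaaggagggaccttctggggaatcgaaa
The only match was TTTCGATTTC in the first window of *Parp11*, from -44 to -35 counted from the start. Of all 32851 windows of the table, 3.44% held a match. With 1 base between the repeats in place of 2, the same window also held GAAATGAAA from -98 to -90, a form found in 3.17% of windows. The deposited locus of *Parp11* begins at 127453723, near the second annotated start, whose window (chr6:127453377-127453676) held no match in either form. The windows of *Dtx3l*, *Parp12*, *Parp3*, *Parp8* and *Parp1* held none, which says only that these letters are not in these 300 bases.

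The other genes of ADP-ribosylation were counted as lists. Of 8 further PARP family genes, 2 rose in wild-type BMDCs, *Tiparp*, a single-unit transferase induced by the aryl hydrocarbon receptor, and *Zc3hav1*, the catalytically inactive member that binds viral RNA. *Zc3hav1* was at 37.8 and 104 FPKM in untreated and treated wild-type BMDCs and at 21.1 and 28.7 FPKM in *Tmem173*-/-. *Tiparp* was at 12.3 and 39.4 FPKM, and at 9.78 and 13.7 FPKM. The log2 differences in wild-type were 1.46 for *Zc3hav1* and 1.68 for *Tiparp*, within the range of the 7 risen members. *Parp2*, the close relative of *Parp1*, differed by -0.57 in wild-type and was not called. The median of the 8 was 0.42, against 1.43 for the 9 members. Both groups were chosen with earlier results of these data known, so this contrast is a description only.

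Of the 33 other ADP-ribosylation genes in all, 26 were tested in wild-type BMDCs, 3 rose, 1 fell and 22 were not called, with a median of -0.02. Against 10.5% and 9.96% of all genes called higher and lower, these counts were near or below the background. The third that rose was *Rnf114*, a ubiquitin ligase that binds ADP-ribose, which went from 57.2 to 140 FPKM. *Macrod1*, a hydrolase that removes single ADP-ribose units, was the one that fell, by 1.37 on the log2 scale, at low levels of 1.52 and 0.53 FPKM. The erasers *Parg*, *Adprh*, *Adprhl2* and *Oard1* and the macrodomain protein *Gdap2* were not called, and none of 5 partners and readers of PARP1 was. In *Tmem173*-/- BMDCs none of the 25 tested was called, against 0.0552% of all genes. *Tiparp*, *Zc3hav1* and *Rnf114* also rose in *Irf1*-/- BMDCs and in those labelled *Irf3/7*-/-.

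**Figure D4:**
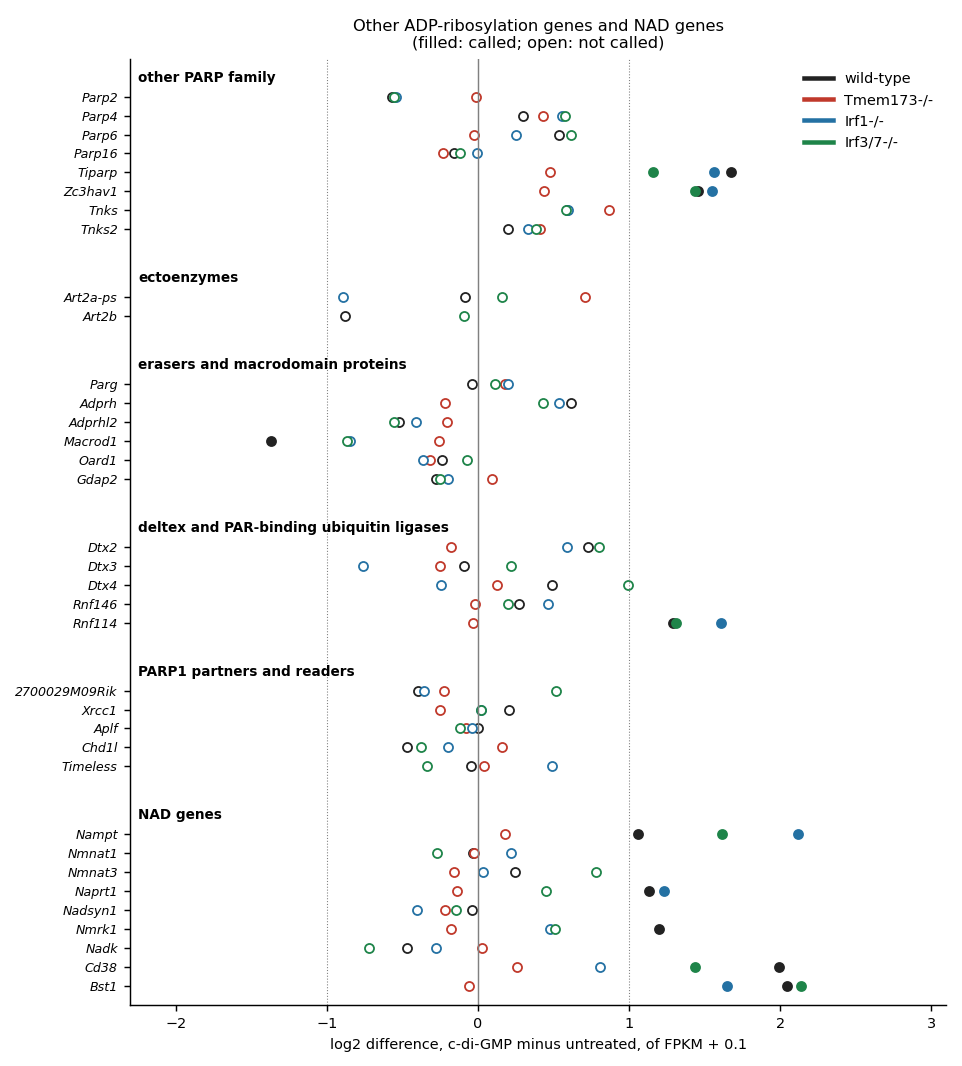
Log2 difference between c-di-GMP-treated and untreated BMDCs of the other ADP-ribosylation genes and of genes of NAD metabolism, by genotype, filled where called. The gene written 2700029M09Rik is the older symbol of *Hpf1*. In wild-type BMDCs *Tiparp*, *Zc3hav1* and *Rnf114* lie past the dotted 2-fold line on the right with 5 NAD genes, *Macrod1* lies past it on the left, and no *Tmem173*-/- point is filled.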

How the data were processed

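RNA-seq libraries were made with a stranded mRNA kit, and according to the labels and the paper's methods the reads were quantified with Cuffdiff (version 1.06 in the submitters' processing notes, another in the methods). The deposited table holds FPKM, an interval and a status per gene and condition, with replicates combined by the authors. The sources used here do not give the aligner or annotation, nor the strand setting of the Cuffdiff run, while the methods give a strand-specific one for SeqMonk. The notes name mm9, but the listed loci are those of GRCm38: of 21681 genes with a single GRCm38 gene of the same name, 21454 overlapped it, so GRCm38 positions are given. The columns read as treated *Tmem173*-/- BMDCs have GDP in their name where the other treated conditions have cdg. That reading is inferred, with the columns lacking this ending taken as untreated. A further 4 columns of another knockout were not used.

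Genes with at least 1 FPKM in either condition and status OK in both were tested on log2(FPKM + 0.1). They were called past 2-fold when the deposited intervals did not overlap. Standard errors took an interval as 1.96 SD on either side. They hold counting error and the spread Cuffdiff estimated, and cannot be taken to hold the spread between cultures. The calls were tested on simulated data. The median half-width of the intervals was 24.3% to 24.7% over 4710 genes in the 8 conditions. Depth cannot be read from FPKM: of 1920 low genes at most 2.97% shared a step of 0.05 log2 units. The members, lists and comparisons (11 in all) were chosen with earlier results of these data known. Genes named outside the 9 come from these lists or are the 3 nearest profiles among genes reaching 5 FPKM.

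The alternatives were pseudocounts of 1 and 0.01 FPKM, no filter or a minimum of 5 FPKM, a 1.5-fold threshold, median centring, the fold change alone, a z made from the intervals (Benjamini-Hochberg q under 0.05), and other spacings of the motif. Computation was done in Python (3.11.15) with pandas (2.3.3), numpy (2.4.6) and scipy (1.17.1), and figures in matplotlib (3.10.9).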

Additional observations from a re-analysis of the deposited data

Results flagged for a closer look

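Differences between the c-di-GMP response of a knockout and that of wild-type BMDCs are listed where the 95% interval carried over from the deposited intervals left out 0. In *Tmem173*-/- BMDCs this held for all 9 genes. The log2 differences were -2.18 for *Parp10*, -1.99 for *Parp12*, -1.49 for *Parp3*, -1.41 for *Parp11*, -1.34 for *Parp14*, -1.09 for *Parp9*, -1.06 for *Dtx3l* and -0.76 for *Parp8*, and *Parp1* stood at 0.91. In *Irf1*-/- BMDCs the response was larger by 1.23 for *Parp12* and 1.08 for *Parp14*. In the BMDCs labelled *Irf3/7*-/- it was smaller for *Parp3*, at -1.06. These differences were judged by the intervals of pooled values and not over replicates.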

How the results depend on the processing

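No paired analysis was possible because the deposited table holds 1 combined value per condition, which also prevents leaving out a replicate. Of 88 counts of called members under 8 alternatives, 85 stayed within 1.5 times the count reported. The other 3 came with the 1.5-fold threshold: 1 in place of 0 in treated *Irf1*-/- against wild-type BMDCs (*Parp11*), 2 in place of 1 in the treated BMDCs labelled *Irf3/7*-/- (*Parp3* and *Parp11*), and 7 in place of 4 in untreated *Irf1*-/- BMDCs. Of 792 differences of single members, 780 kept their side of the threshold, 11 newly passed and 1 no longer passed. Changes of direction were counted only for called differences, and there were 0. Differences near 0 that were not called could change sign. All 81 differences between responses moved by less than their standard error and kept their side of 0. Median centring moved no comparison by more than 0.05 log2 units. Over all genes, calls within *Tmem173*-/- BMDCs numbered 6, against 1 and 11 with pseudocounts of 1 and 0.01 FPKM, 10 without the filter, 56 at 1.5-fold, 83 by fold change alone and 28 by z. With a minimum of 5 FPKM, where fewer genes are tested, calls against treated wild-type fell from 838 to 538 in *Irf1*-/- and from 818 to 460 in the BMDCs labelled *Irf3/7*-/-. Without treatment they fell from 1221 to 800 in *Tmem173*-/-, from 527 to 323 in *Irf1*-/- and from 224 to 112 in those labelled *Irf3/7*-/-, and between the 2 treated factor knockouts from 1106 to 723. For the BMDCs labelled *Irf3/7*-/-, a pseudocount of 1 FPKM gave 536 treated and 118 untreated calls, and the 1.5-fold threshold 350 untreated calls. With 3 bases between the repeats, the *Parp11* window held 0 matches.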

Other observations

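Genes that make or spend NAD, the substrate of the PARPs, were counted as a list. Of 12 listed, 9 were tested in wild-type BMDCs and 5 rose, *Nampt*, *Naprt1*, *Nmrk1*, *Cd38* and *Bst1*, where 10.5% of all genes were called higher. *Nmnat1*, *Nmnat3*, *Nadsyn1* and *Nadk* were not called, with log2 differences between -0.47 and 0.24. *Nampt*, the rate-limiting enzyme of NAD salvage, went from 53.7 to 112 FPKM in wild-type, from 21.7 to 94.3 FPKM in *Irf1*-/- and from 50.1 to 153 FPKM in the BMDCs labelled *Irf3/7*-/-, and was at 25.6 and 29.1 FPKM in *Tmem173*-/-. *Cd38*, an ectoenzyme that breaks down NAD, went from 12.4 to 49.5 FPKM in wild-type, while it was at 2.74 and 4.86 FPKM in *Irf1*-/- BMDCs. After treatment *Cd38* was lower in *Irf1*-/- than in wild-type BMDCs, at a log2 difference of -3.32, and so was *Bst1*, its close relative, at -1.90. None of the 9 PARP and *Dtx3l* genes was called in that comparison.

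Among 6 listed ecto-ADP-ribosyltransferases, *Art2b*, known as a surface enzyme of T cells, was at 3.39 and 1.80 FPKM in untreated and treated wild-type, 0.046 and 0.061 FPKM in *Tmem173*-/-, 0.14 and 0.26 FPKM in *Irf1*-/-, and 5.79 and 5.42 FPKM in the BMDCs labelled *Irf3/7*-/-. The sum of the T and NK cell genes followed the same order of genotypes. *Art2a-ps*, another of the 6, followed it in untreated BMDCs only. After treatment it was at 1.80 FPKM in *Tmem173*-/- and 1.13 FPKM in *Irf1*-/-, the reverse of that order, with overlapping intervals. The part of the T and NK cell sum in these levels was not tested.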
